A study of Homo sapiens with 5 samples.

Results

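The genes described here are 46 genes of the splicing machinery: SR proteins (SRSF), heterogeneous nuclear ribonucleoproteins (HNRNP), proteins of small nuclear ribonucleoproteins (SNRP), and the SF3A, SF3B and U2AF factors. They were chosen by a rule on symbols, which holds no measured value, from the 4202 genes of the deposited table, and 1 pseudogene was left out. The rule was set with earlier results of these data known, and the table holds only genes whose 5 levels sum to at least 5.04. The 46 genes comprise 9 SR, 19 hnRNP, 8 Sm and snRNP, and 10 SF3 and U2AF genes. RefSeq lists 62 protein-coding symbols of these families. The other 16, among them SRSF4, SRSF11, SNRPE, SNRPG and U2AF1, are not in the deposited table and were not analysed here. RNA came from MDA-MB-231 cells, an established line of triple-negative breast cancer, kept for 4 h under 1 of 5 conditions. These were mock, CGI-1746 (a BTK inhibitor per the labels), LU-102 (labelled as the submitters' own inhibitor), both together, and bortezomib, a proteasome inhibitor that served as control for what inhibiting the proteasome does. The sources used here name no dose and no vehicle. Each condition has 1 library of total RNA, so no difference below has a replicate error and none was tested.

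Splicing removes introns from pre-mRNA. SR proteins bind exons and help recruit the spliceosome, whereas hnRNPs coat the nascent transcript and often keep splice sites from being used. Sm proteins form the ring around most spliceosomal small nuclear RNAs, the SF3A and SF3B complexes of the U2 particle hold the branch point, and U2AF2 binds the polypyrimidine tract. Many SR and hnRNP genes limit their own mRNA through unproductive splicing, which levels per gene, as given here, do not resolve.

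The level of a gene is the normalized signal deposited by the authors, which scales with reads per length of gene within a library, so that levels of different genes can be set side by side. Read as RPKM, a unit the authors do not state, it puts the libraries at 16800000 (mock), 17000000 (CGI-1746), 17100000 (LU-102), 17000000 (both) and 18600000 reads (bortezomib). The bortezomib library stands apart from the rest: 2231 genes had a level of at least 1 there against 4161 to 4177 elsewhere, the summed level of protein-coding genes was 33.6% of mock, and RNA45SN3, a gene of the ribosomal RNA precursor, had a level of 13832 against 597 to 876. Of the markers fixed for the line, 9 of 11 mesenchymal genes were in the table, with a summed level of 194 to 214 in 4 libraries and 43.9 with bortezomib. Of 11 epithelial markers KRT18, KRT19 and KRT8 were in it (summed level 48.2 to 53.1, and 10.2 with bortezomib), and of 9 markers of blood and endothelial cells 0 were. In bulk RNA, fewer cells and less RNA per cell cannot be told apart. Reads of overlapping genes also cannot be told apart, since the counting is not stated to use strand.

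In the mock library the 46 genes had levels from 1.62 (SF3A3) to 59.2 (SRSF2), with a median of 7.13 and a sum of 583, which was 1.53% of the summed level of protein-coding genes. That share was 1.44% (LU-102) to 1.56% (bortezomib) in the other 4 libraries. SR genes held 42.3% of the summed member level in mock although they are 9 of the 46, hnRNP genes 39.3%, SF3 and U2AF genes 11.6% and Sm and snRNP genes 6.84%. With bortezomib these shares were 54.9%, 29.9%, 7.61% and 7.53%. All 46 genes had their lowest of the 5 deposited levels with bortezomib. The share of all genes with that order was not counted, but 92.2% of them were lower with bortezomib than in mock. Among the other 4 libraries the highest level of a gene was 1.05 to 1.45 times its lowest, with a median of 1.16 (1.19 over all genes).

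**Figure D1:**
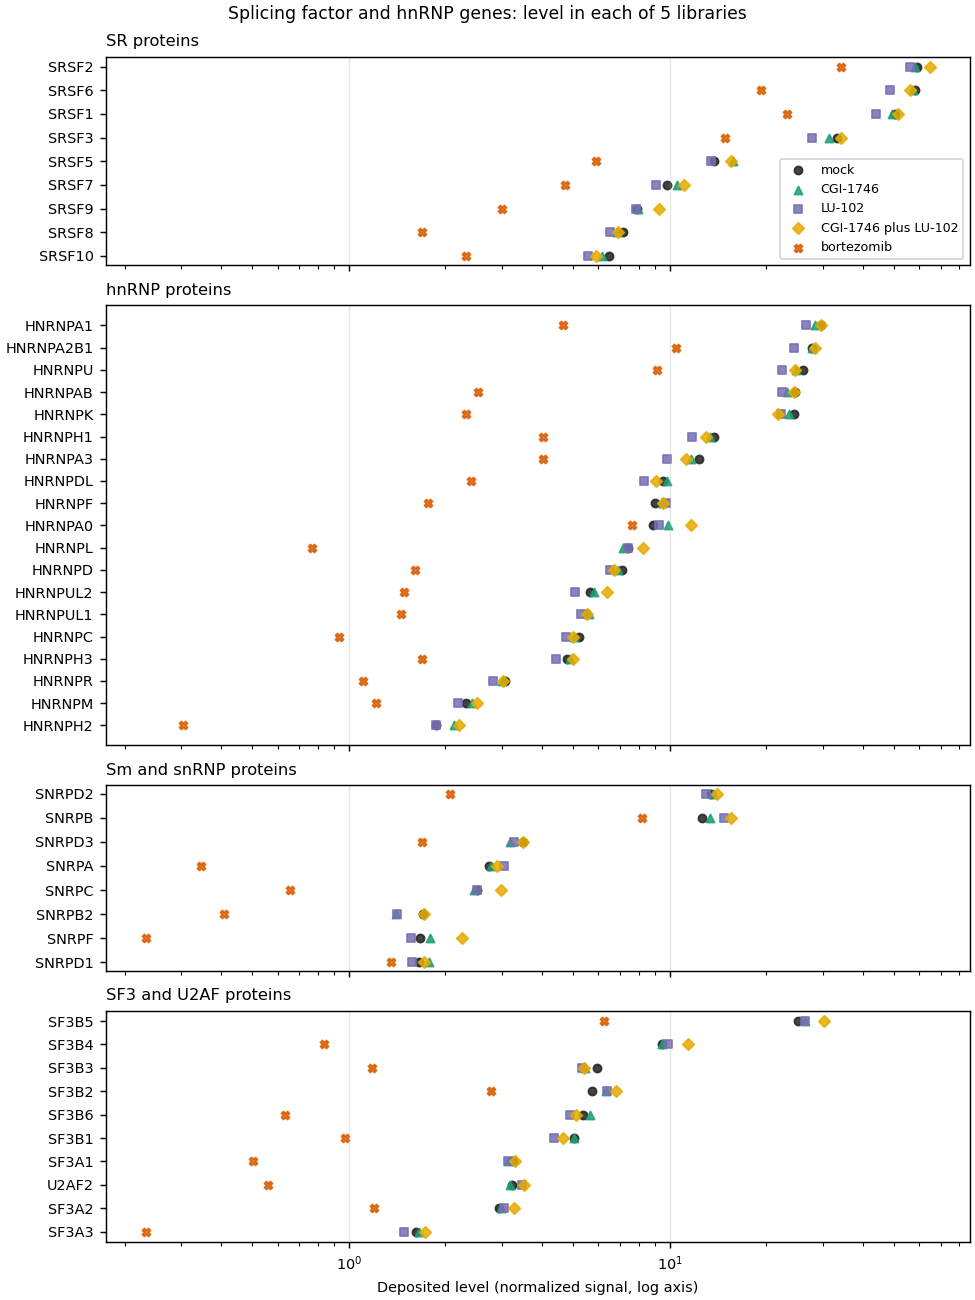
Level of each of the 46 genes (rows, by group) in the 5 libraries on a log axis, 1 marker per library. In every row the bortezomib marker, on the deposited scale, lies to the left of the other 4, which lie within 1.45-fold of each other. Of all genes, 92.2% were also lower with bortezomib than in mock.

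Levels in the 5 libraries are given throughout in the order mock, CGI-1746, LU-102, both inhibitors, bortezomib. SRSF2, also known as SC35, an SR protein of nuclear speckles, was the most abundant of these genes, with levels of 59.2, 58.0, 56.3, 65.0 and 34.3. SRSF6 had 58.4, 57.6, 48.7, 56.1 and 19.2. SRSF1, the splicing factor also known as SF2, had 50.5, 49.2, 44.1, 51.4 and 23.3. These 3 genes shared the order of a slightly lower level with LU-102 and the lowest with bortezomib, but SRSF2 kept 57.9% of its mock level there and SRSF6 32.9%.

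SRSF3, the smallest SR protein, had levels of 33.3, 31.3, 27.8, 34.1 and 14.8. SRSF5 had 13.7, 15.8, 13.5, 15.5 and 5.89, the highest being that with CGI-1746. SRSF7, an SR protein with a zinc knuckle, had 9.81, 10.6, 9.07, 11.1 and 4.73. SRSF9, SRSF8 and SRSF10 had the lowest SR levels, 7.91, 7.16 and 6.45 in mock and 3.01, 1.69 and 2.32 with bortezomib. The lowest SR gene in mock thus stood near the median of the 46 genes.

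Among hnRNP genes HNRNPA1, which binds RNA through paired recognition motifs and represses exons, had levels of 29.6, 28.4, 26.7, 29.7 and 4.66. Its processed copy HNRNPA1P10, left out by the rule, was listed at 80.9, 79.6, 64.9, 76.6 and 15.0, so the division of reads between HNRNPA1 and its copies is uncertain. HNRNPA2B1, a close relative, had 27.8, 27.7, 24.4, 28.4 and 10.5. HNRNPU, which also binds chromatin, had 26.1, 24.8, 22.4, 24.6 and 9.12. The related HNRNPA1 and HNRNPA2B1 were nearly equal in mock and differed more than 2-fold with bortezomib.

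HNRNPK, a protein of KH domains that binds C-rich sequences, had levels of 24.4, 23.6, 22.2, 21.8 and 2.32. HNRNPAB, a relative of HNRNPD, had 24.7, 23.3, 22.4, 24.5 and 2.52. HNRNPA0, of the A and B class, was lower in mock and little lower with bortezomib, with 8.89, 9.89, 9.23, 11.7 and 7.65. The remaining 13 hnRNP genes had mock levels from 13.8 (HNRNPH1) to 1.87 (HNRNPH2).

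The Sm and snRNP genes were listed lower. SNRPD2, an Sm ring protein, had levels of 13.5, 13.7, 13.0, 14.1 and 2.07. SNRPB, the Sm protein B, had 12.6, 13.4, 14.8, 15.5 and 8.22. SNRPD3, which pairs with SNRPB in the ring, had 3.48, 3.18, 3.27, 3.50 and 1.69. SNRPD2 and SNRPB, whose products sit in the same ring, were close to each other in mock, and with bortezomib SNRPD2 was the lower by far. The other 5 (SNRPA and SNRPC of the U1 particle, SNRPB2 of the U2 particle, and the Sm proteins SNRPD1 and SNRPF) had mock levels of 2.74, 2.51, 1.70, 1.66 and 1.67.

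Of the U2 particle, SF3B5, its smallest SF3B subunit, had levels of 25.04, 26.5, 26.5, 30.4 and 6.23. SF3B4, a subunit with RNA recognition motifs, had 9.48, 9.48, 9.89, 11.4 and 0.839. SF3B2 had 5.73, 6.33, 6.38, 6.79 and 2.78. SF3B1, the largest subunit and a gene mutated in several cancers, had 5.02, 5.03, 4.37, 4.65 and 0.974. Subunits of the same complex were therefore listed at levels as far apart as those of SF3B5 and SF3B1. U2AF2 stood at 3.22 and the 3 SF3A genes at 1.62 to 3.25.

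The first comparison took CGI-1746 alone. The 46 genes hardly differed: their median difference of log2(level + 1) was -0.0012 against -0.018 for all 4186 genes compared, with 23 above 0 and 23 below (43.3% and 56.7% of all genes), and the range was -0.17 to 0.19. With median-of-ratios scaling the medians were 0.032 and 0.0097. At 2-fold 0 of the 46 were higher and 0 lower, where 0.119% and 0.0478% of all genes were. A smaller threshold, 25% above or 20% below on the level + 1, was also used, and 0 were higher and 0 lower by it, where 1.53% and 0.836% of all genes were. The 5 highest were SRSF5 at 0.19, HNRNPA0 at 0.14, SF3B2 and HNRNPH2 at 0.12 and SRSF7 at 0.096. The 5 lowest were SNRPB2 at -0.17, SF3B3 at -0.10, SNRPD3 at -0.099, SRSF3 at -0.083 and HNRNPAB at -0.080. SF3B3, another SF3B subunit, had levels of 5.92, 5.45, 5.35, 5.41 and 1.18. SNRPB2 had 1.70, 1.40, 1.41, 1.72 and 0.407, and HNRNPH2 1.87, 2.12, 1.87, 2.21 and 0.304, which are low levels. Depending on which GENCODE 29 transcript was counted, the mock level of SNRPB2 stands for about 46 to 70 reads.

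The next took LU-102 alone. Here 37 of the 46 genes (80.4%) were below 0, all 9 SR and 17 of 19 hnRNP genes among them, where 64.2% of all 4193 genes were. The median was -0.083 against -0.058 for all genes, and 27 of the 46 were below the all-gene median, among them 7 of 9 SR and 13 of 19 hnRNP genes. With median-of-ratios scaling 32 of the 46 (69.6%) were below 0, where 59.0% of all genes were, and the medians were -0.058 and -0.033. On the deposited scale 0 were higher and 0 lower at 2-fold (0.0715% and 0% of all genes), and at the smaller threshold again 0 and 0 (2.03% and 1.43%). The 5 lowest were HNRNPA3 at -0.30, SRSF6 at -0.26, SRSF3 at -0.25, HNRNPH1 at -0.22 and HNRNPU at -0.21. HNRNPA3, of the A and B class of hnRNPs, had levels of 12.3, 11.7, 9.82, 11.2 and 4.03, and HNRNPH1, which binds G-rich runs, had 13.8, 13.4, 11.7, 13.0 and 4.03. The 5 highest were SNRPB at 0.21, SF3B2 at 0.13, SNRPA at 0.11, HNRNPF at 0.11 and U2AF2 at 0.081. HNRNPF had levels of 8.98, 9.44, 9.74, 9.54 and 1.76, SNRPA 2.74, 2.77, 3.04, 2.89 and 0.345, and U2AF2 3.22, 3.18, 3.46, 3.52 and 0.559.

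By group, the summed level of SR genes was 89.1% of mock and that of hnRNP genes 90.5% with LU-102, while Sm and snRNP genes had 103% and SF3 and U2AF genes 101%. The latter sums lean on 1 abundant gene each: without SNRPB the Sm and snRNP genes had 96.8%, and without SF3B5 the SF3 and U2AF genes 98.8%. Without SRSF2 the SR genes had 87.1%, and without HNRNPA1 the hnRNP genes 90.6%. Of the 8 Sm and snRNP genes 6 were below 0. The library with LU-102 held the lowest of the 4 levels outside bortezomib for 32 of the 46 genes (69.6%), among them 9 of 9 SR and 15 of 19 hnRNP genes. Over all genes of the table this share was 46.9%, and it was 46.4% of the 1338 genes with a mock level of at least 5. With median-of-ratios scaling it was 15 of the 46 genes, 5 of 9 SR genes and 8 of 19 hnRNP genes, against 27.0% of all genes, so the count depends on the scaling.

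For both inhibitors together, set against mock, the median of the 46 genes was 0.034 against 0.033 for all 4189 genes, with 31 above 0 (67.4%, where 57.8% of all genes were), and the range was -0.15 to 0.36. With median-of-ratios scaling the median turned to -0.046 and that of all genes to -0.045. On that scale 17 of the 46 were above 0, where 38.0% of all genes were. At 2-fold 0 genes were higher and 0 lower, where 0.167% and 0.0477% of all genes were. At the smaller threshold HNRNPA0 was higher, 1 of 46 where 5.42% of all genes were, and 0 were lower (1.38%). HNRNPA0 stood at 0.36, followed by SNRPF at 0.29, SNRPB at 0.28, SF3B5 at 0.27 and SF3B4 at 0.24. With median-of-ratios scaling 0 genes passed that threshold. SNRPF, an Sm protein, had levels of 1.67, 1.79, 1.56, 2.26 and 0.232, and this rests on few reads, about 16 to 39 in mock. The 5 lowest were HNRNPK at -0.15, HNRNPA3 at -0.13, SRSF10 at -0.11, SF3B3 at -0.11 and SF3B1 at -0.092. SRSF10, which differs from the classical SR proteins in repressing splicing when dephosphorylated, had levels of 6.45, 6.16, 5.58, 5.88 and 2.32.

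**Figure D2:**
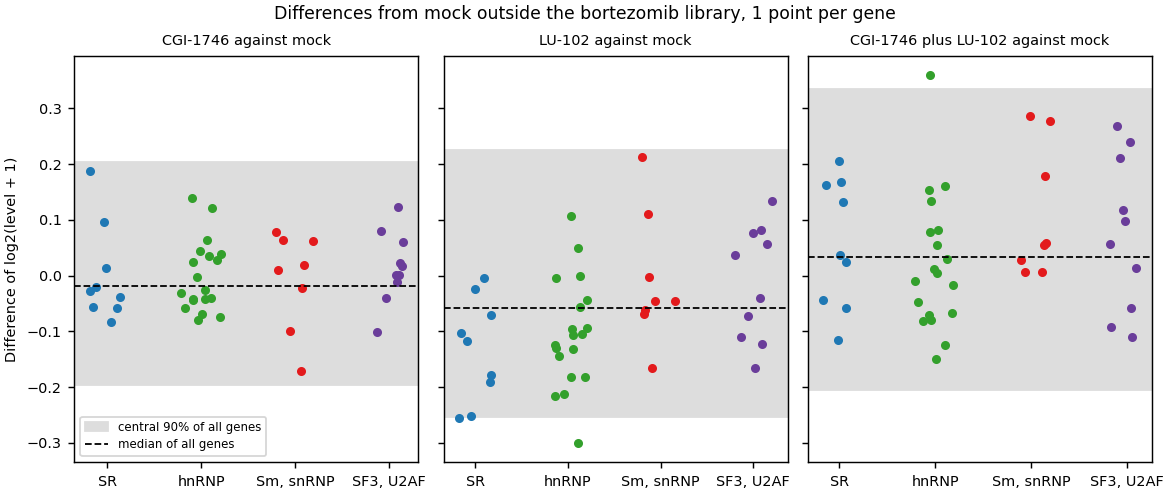
Difference of log2(level + 1) from mock for each of the 46 genes (points, by group) with CGI-1746, LU-102 and both, beside the median (dashed line) and the central 90% (grey band) of all genes. Most points lie inside the band, and HNRNPA0 with both inhibitors is the highest at 0.36.

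Set against each agent alone, the combination also left these genes close to their levels. Against LU-102 the median was 0.13, where all genes had 0.085, and 43 of the 46 (93.5%) were above 0, where 80.0% of all genes were. Past the smaller threshold SNRPF alone was higher, at 0.35, 1 of 46 where 3.01% of all genes were, followed by HNRNPA0 at 0.31 and SRSF3 at 0.29, and 0 were lower (0.978%). With median-of-ratios scaling that median was 0.0043 and 24 of the 46 were above 0, where 42.9% of all genes were. Against CGI-1746 the median was 0.039 and that of all genes 0.042, with 31 above 0 (66.8% of all genes). The former turned to -0.068 with median-of-ratios scaling, with 11 above 0, where 28.5% of all genes were. At that threshold 0 were higher there and 0 lower, where 3.39% and 0.668% of all genes were, and at 2-fold 0 of the 46 passed in either comparison (0.143% higher and 0% lower against LU-102, 0.0715% and 0.0238% against CGI-1746). All of these comparisons share libraries, so their values are not independent.

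On the deposited scale, levels with bortezomib were lower than in mock for all 46 genes, where 92.2% of all genes were lower, by a ratio that differed much between them. With median-of-ratios scaling, which takes the all-gene median from -0.98 to -0.44, 41 of the 46 were lower, where 73.4% of all genes were. HNRNPA0 (0.68), SNRPD1 (0.44), SNRPB (0.33), SRSF2 (0.18) and HNRNPM (0.027) were higher than mock, where 26.6% of all genes were. In every comparison the factors of this scaling rest on genes that kept a level of at least 5 with bortezomib. The median gene kept 26.2% of its mock level, and the range was 8.85% (SF3B4) to 86.1% (HNRNPA0), where the median over all genes of the table was 32.4%. On the log2(level + 1) scale the median was -1.40 against -0.98 for all 4189 genes. On that scale 35 of the 46 (76.1%) were 2-fold or more lower, where 48.1% of all genes were, and 0 were higher (1.38%). At the smaller threshold 44 were lower (85.1% of all genes) and 0 higher (4.01%). With median-of-ratios scaling 34 were lower and 3 higher, and the share of all genes was not counted on that scale. By the ratio of levels alone, which does not shrink low genes, 41 of the 46 (89.1%) were 2-fold or more lower, where 72.4% of all genes were, and 0 were higher (2.01%). The larger part of the table was thus also lower. With bortezomib 13 of the 46 genes were listed below a level of 1 and 33 at 1 or more, where 2231 of all 4202 genes were at 1 or more.

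The 4 groups were placed differently in this library. SR genes kept a median of 43.0% of mock (range 23.7% to 57.9%), and 8 of the 9 stood above the all-gene median of 32.4%. The hnRNP genes kept 26.3% (9.54% to 86.1%), with 7 of 19 above it, Sm and snRNP genes 24.99% (12.6% to 81.5%), with 3 of 8 above it, and SF3 and U2AF genes 18.4% (8.85% to 48.6%), with 2 of 10 above it. On the log2(level + 1) scale the medians were -1.11 for SR, -1.42 for hnRNP, -1.01 for Sm and snRNP and -1.56 for SF3 and U2AF genes. That scale puts SR genes below the all-gene median of -0.98 and Sm and snRNP genes near it, since the pseudocount shrinks the many low genes. Where only genes reaching a level of 5 in mock or bortezomib were kept, the all-gene median was -1.43 and SR genes were above it. The 32 of the 46 kept there all reached that level in mock. With median-of-ratios scaling SR genes stood at -0.23 where all genes stood at -0.44. With a pseudocount of 5 SR genes stood at -0.78, below the -0.38 of all genes, so their place depends on the setting.

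**Figure D3:**
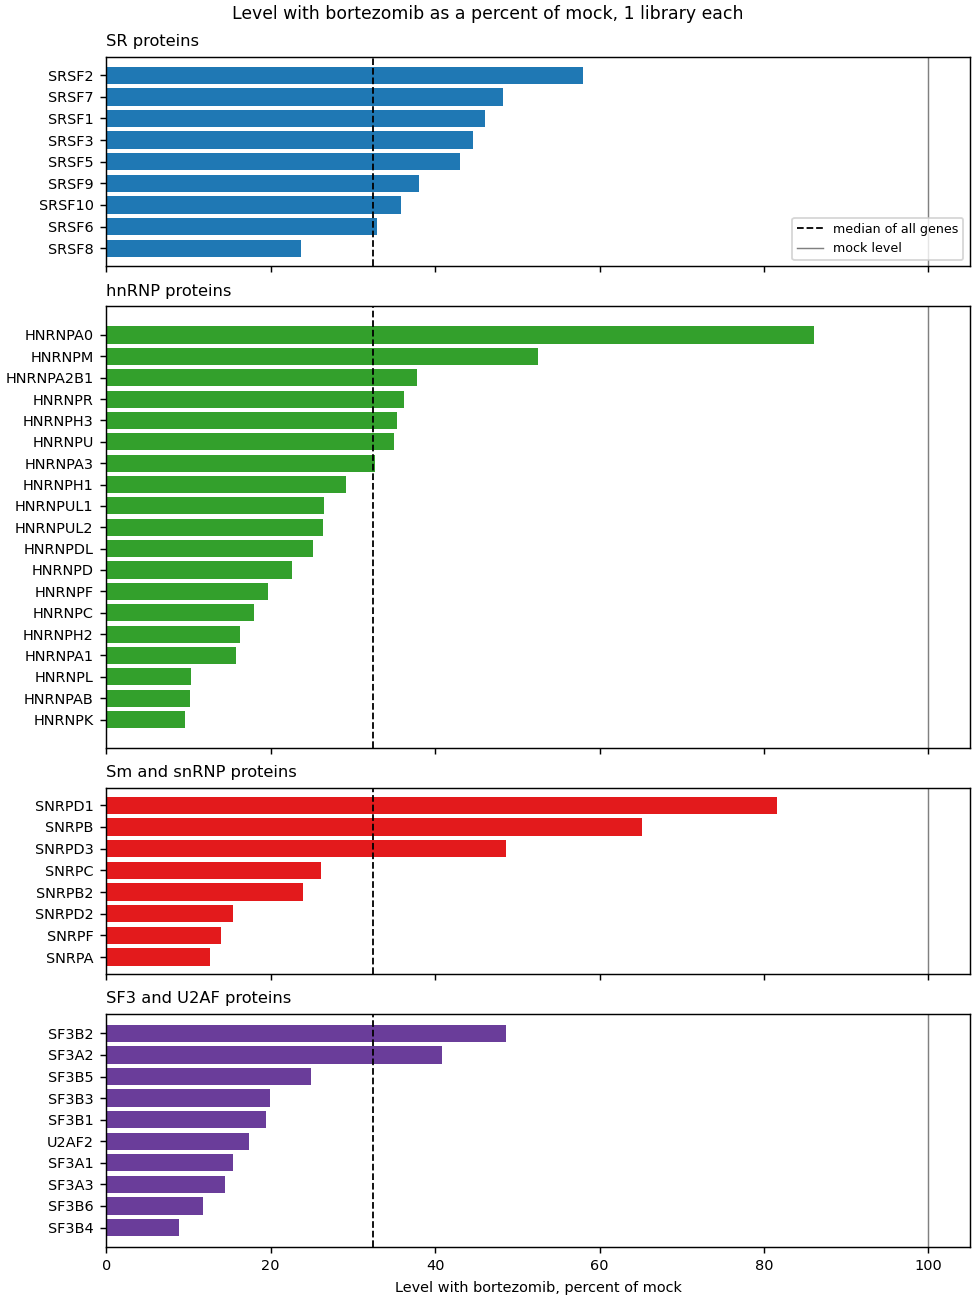
Level with bortezomib as a percent of the mock level for each of the 46 genes (bars, by group), with 1 library each and hence no error bar. The dashed line is the median of all genes of the table, 32.4%, and 8 of 9 SR bars end to its right against 2 of 10 SF3 and U2AF bars.

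Among SR genes SRSF2 kept most, 57.9%, then SRSF7 with 48.3%, SRSF1 with 46.1%, SRSF3 with 44.6% and SRSF5 with 43.0%. SRSF9 kept 38.0%, SRSF10 35.9% and SRSF6 32.9%, and SRSF8, a copy of SRSF2 that arose by retrotransposition, 23.7%. The abundant SRSF2 and its copy SRSF8 were thus at the 2 ends of the group.

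The hnRNP genes spread most. HNRNPK kept 9.54% of mock, HNRNPAB 10.2%, HNRNPL, which binds CA-rich RNA, 10.3% and HNRNPA1 15.8%. Relative to the all-gene log2(level + 1) median, which spans genes of all levels, these 4 were 2-fold or more lower. Beside genes of like mock level, as given below, only HNRNPK and HNRNPAB were on that scale, and by percent of mock HNRNPL was too. HNRNPL had levels of 7.43, 7.18, 7.41, 8.25 and 0.767. At the other end HNRNPA0 kept 86.1% and HNRNPM 52.6%, with HNRNPM at levels of 2.32, 2.42, 2.19, 2.51 and 1.22. Between them came HNRNPA2B1 with 37.8%, HNRNPR with 36.2%, HNRNPH3 with 35.4%, HNRNPU with 35.0%, HNRNPA3 with 32.7% and HNRNPH1 with 29.2%. HNRNPUL1, HNRNPUL2, HNRNPDL and HNRNPD kept 26.5%, 26.3%, 25.1% and 22.6%, and HNRNPF, HNRNPC and HNRNPH2 19.6%, 17.9% and 16.3%. Some related genes were close to each other, as HNRNPUL1 and HNRNPUL2 or HNRNPDL and HNRNPD were, and others were far apart, as HNRNPA0 and HNRNPA1 were.

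Of the Sm proteins SNRPD1 kept 81.5%, SNRPB 65.2% and SNRPD3 48.7%, whereas SNRPD2 kept 15.4% and SNRPF 13.9%. SNRPD1 had levels of 1.66, 1.78, 1.57, 1.71 and 1.35, and its mock level stands for 8.9 to 137 reads, depending on the transcript counted, so this ratio is known poorly. SNRPC kept 26.1%, SNRPB2 23.9% and SNRPA 12.6%. Of the SF3 genes SF3B2 kept 48.6% and SF3A2 40.9%, SF3B5 24.9%, SF3B3 19.9%, SF3B1 19.4%, SF3A1 15.5%, SF3A3 14.4%, SF3B6 11.8% and SF3B4 8.85%, and U2AF2 kept 17.4%. Relative to the all-gene median, 6 of the 46 genes were 2-fold or more lower (13%, where 7.83% of all genes were), namely HNRNPK, HNRNPAB, HNRNPA1, HNRNPL, SF3B4 and SNRPD2, and 0 were higher (7.52%). At the smaller threshold 25 were lower (29.1% of all genes) and 4 higher (28.9%), the latter HNRNPA0, SNRPD1, SNRPB and HNRNPM.

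The level in mock moves with these values, so the genes were also set beside all genes of like level. Among genes with a mock level of 5 to 10, 17 of the 46 had a median of 23.7% of mock where all 681 genes had 29.2%, and 12 of the 17 were below. Above a level of 20, 10 of the 46 had 33.9% where all 319 genes had 27.4%, and between 10 and 20, 5 had 32.7% where all 338 had 31.3%. Between 2 and 5, 9 genes had 35.4% where all 1594 had 30.5%, and below 2, 5 genes had 16.3% where all 1229 had 38.7%. The 46 genes as a whole therefore lay on both sides of other genes of their level. On the log2(level + 1) scale all genes had medians of -1.39 (5 to 10), -1.46 (10 to 20) and -1.76 (above 20). Against these, HNRNPK (-2.93), HNRNPAB (-2.87) and SF3B4 (-2.51) were still 2-fold or more lower. HNRNPA1 (-2.43), HNRNPL (-2.25) and SNRPD2 (-2.24) were lower by less than 2-fold on that scale, where the pseudocount shrinks differences. By percent of mock HNRNPL kept 10.3% where genes of its range had 29.2%, and SNRPD2 15.4% where they had 31.3%. Each of these 2 was more than 2-fold lower, whereas HNRNPA1, with 15.8% where genes of its range had 27.4%, was not.

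**Figure D4:**
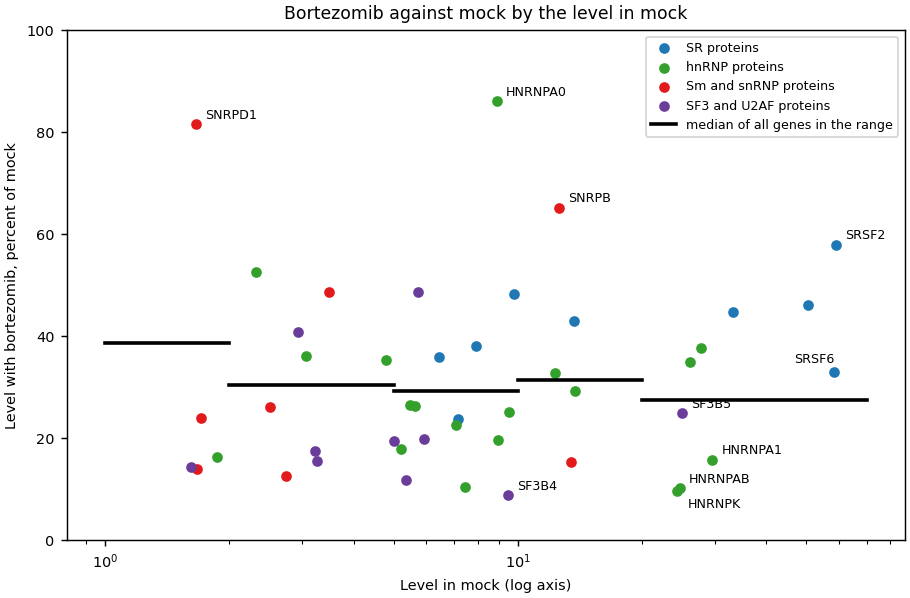
Level with bortezomib as a percent of mock against the level in mock (log axis) for the 46 genes, coloured by group, with black lines at the median of all genes within each range of mock level. Above a level of 20 the SR genes lie above the line, at 32.9% to 57.9%, as do HNRNPA2B1 at 37.8% and HNRNPU at 35.0%. HNRNPA1, HNRNPAB and HNRNPK lie below it, at 15.8% or less, as does SF3B5 at 24.9%.

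For 3 of the genes, whose coding transcripts have 1 exon in GENCODE 29, reads could be recovered from the level, since level times RefSeq length, divided by the value of 1 read, came within 0.15 of a whole read in all 5 libraries. HNRNPA0 (chromosome 5, 137745651 to 137754363, GRCh38.p14) had 1304, 1465, 1374, 1732 and 1240 reads. Its ratio to mock was 1.32 with both (exact Clopper-Pearson 95% interval 1.22 to 1.42) and 0.861 with bortezomib (0.796 to 0.931). SF3B5 (chromosome 6, 144094884 to 144095573) had 291, 311, 312, 356 and 80 reads, a ratio of 1.21 with both (1.04 to 1.42) and of 0.249 with bortezomib (0.192 to 0.320). SRSF8 (chromosome 11, 95066877 to 95071225) had 524, 506, 484, 511 and 137 reads, a ratio of 0.966 with both (0.854 to 1.09) and of 0.237 with bortezomib (0.195 to 0.286). These intervals cover counting error only, not the spread between cultures, and they hold for the deposited scale only. With median-of-ratios scaling HNRNPA0 was above mock with bortezomib (0.68), while SF3B5 (-0.97) and SRSF8 (-0.90) stayed below it. On that scale HNRNPA0 did not pass the smaller threshold with both inhibitors. Over the table, 130 genes with 1 exon in every coding transcript kept a median of 51.8% of mock with bortezomib and 3735 genes with more exons 31.5%, and of the 3 genes here HNRNPA0 was above the former median and SF3B5 and SRSF8 below the latter.

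The sequence before the start site is shown for genes at both ends of the bortezomib ratios, the 2 lowest and 2 highest of those with a mock level of at least 5 and a single start in the RefSeq promoter table. Each is the 100 bases before the start on the gene's strand (RefSeq, GRCh38.p14). They are SF3B4 at chr1:149927804-149927903 (minus strand) and HNRNPAB at chr5:178204433-178204532 (plus), which kept 8.85% and 10.2%, and SNRPB at chr20:2470790-2470889 (minus) and HNRNPA0 at chr5:137754364-137754463 (minus), which kept 65.2% and 86.1%. Capitals mark a match, on either strand, to the GC box GGGCGG, the CCAAT box, the TATA box TATAAA, the ETS core CGGAAG, the CRE core TGACGT, the E-box CACGTG or a heat shock element unit GAANNTTC.
SF3B4: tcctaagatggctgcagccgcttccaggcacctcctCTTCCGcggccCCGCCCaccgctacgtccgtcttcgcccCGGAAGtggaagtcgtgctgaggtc
HNRNPAB: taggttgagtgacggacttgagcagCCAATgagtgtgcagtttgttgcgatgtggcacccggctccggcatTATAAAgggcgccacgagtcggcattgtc
SNRPB: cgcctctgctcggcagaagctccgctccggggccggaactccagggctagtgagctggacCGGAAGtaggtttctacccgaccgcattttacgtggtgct
HNRNPA0: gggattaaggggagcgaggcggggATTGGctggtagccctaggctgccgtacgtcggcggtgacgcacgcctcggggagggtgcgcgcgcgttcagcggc

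The ETS core occurred in SF3B4, which was low, and in SNRPB, which was high, and the CCAAT box in HNRNPAB, low, and HNRNPA0, high, so neither separated these 4 windows. HNRNPAB held a TATA box, and its window had 56% G and C against 67%, 63% and 72% in SF3B4, SNRPB and HNRNPA0. Of the 46 genes, 42 matched the promoter table, with 59 windows. The ETS core was in 19 of these 59 (32.2%), where 9.90% of all 35116 windows and 20.3% of the 4560 windows of genes in the table held it. The GC box was in 37.3% (31.3% of all, 52.8% of genes in the table), the CCAAT box in 28.8% (18.1%, 23.3%) and the TATA box in 5.08% (4.99%, 3.49%). CRE core and E-box were each in 10.2% (4.25% and 3.43% of all, 7.02% and 5.48% of genes in the table), and the heat shock unit in 3.39% (2.20%, 1.49%). Matches describe letters in these windows, and some genes hold several windows that overlap.

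Other genes of splicing were taken from 6 lists of 172 genes, of which 98 were in the table. With CGI-1746, LU-102 or both, 0 of the 98 passed even the smaller threshold, and their medians were -0.0079, -0.072 and 0.018. With bortezomib 64 of the 98 were 2-fold or more lower, where 48.1% of all genes were, and 0 higher (1.38%), at a median of -1.20 and 25.01% of mock, close to the 26.2% of the 46 genes. By list, 8 of 10 SR-related proteins and SR protein kinases were 2-fold lower, 11 of 18 Prp19, exon junction and helicase proteins, and 24 of 29 other RNA-binding regulators. For proteins of U1 and the tri-snRNP it was 10 of 20, for LSm and snRNP assembly proteins 6 of 11 and for U2-associated proteins 5 of 10, shares near the 48.1% of all genes. By median percent of mock, where all genes had 32.4%, these 3 lists had 25.3%, 34.9% and 23.6%. The SR-related, Prp19 and other RNA-binding lists had 26.6%, 21.7% and 22.2%, so the order of the lists depends on the measure.

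Of the SR-related list, SRRM2, a scaffold of nuclear speckles, kept 18.1% of mock with bortezomib (levels of 21.5 and 3.90), the kinase SRPK1 18.7%, TRA2B, an exon activator, 21.5% and RNPS1 27.9%. PRPF8, the core of the spliceosome, kept 13.5% (15.8 and 2.13), SNRNP200, a helicase, 25.3%, SNU13 15.2% and SNRNP25 8.28%. In snRNP assembly PRMT5, which methylates Sm proteins, kept 14.2% (14.1 and 1.99), DDX20 16.6%, GEMIN4 33.7% and LSM2 12.4%. SF1, which binds the branch point first, kept 13.6% (16.2 and 2.20), DDX42 13.8%, PUF60 20.2% and DHX15 22.9%. Genes were named here for their large differences, and others kept more, as STRAP with 79.3%, SMNDC1 with 74.5% and PHF5A with 65.5%.

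The helicases DDX39B and DDX39A kept 9.35% and 12.4%, EIF4A3 of the exon junction complex 13.9% and PLRG1 6.78%. TARDBP kept 9.72%, PTBP1, the repressor also known as hnRNP I, 12.6% (18.5 and 2.33) and ILF2 18.5%. PRPF38B, chosen after its values were seen, was the only one of the 98 with a higher level than mock, 3.71 against 2.79. The spliceosomal RNAs RNU4-2 and RNU12 stood at 2273 against 122 and at 93.8 against 1.59 in the same 2 libraries. Their part in these results, like that of the ribosomal RNA noted above, was not tested.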

How the data were processed

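RNA of 5 MDA-MB-231 cultures, 1 per condition, was sequenced as total RNA. The submitters' processing notes name Partek and hg38. The aligner, annotation, filter, strand and normalization behind the table were not stated. It holds a normalized signal (a least squares mean, per the file headers) deposited by the authors per gene and library, and the 5 levels of each gene sum to at least 5.04. Another 7 columns that repeat a library in other comparisons, and the authors' ratios and p-values, were not used.

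Libraries were compared on log2(level + 1), a pseudocount of 1, keeping genes that reach a level of 1 in at least 1 of the compared libraries. Genes were counted at 2-fold and at a smaller threshold (25% above, 20% below) in 6 comparisons, and set beside all genes. With 1 library per condition no test was run. Alternatives were other pseudocounts and filters, median-of-ratios scaling and centring on the all-gene median. Factors for median-of-ratios scaling used only genes whose level reached 5 in every library, bortezomib included, also for comparisons of other libraries. The value of 1 read (53.8 to 59.4 of level times base pairs) was fitted on 16 to 28 short RNA genes per library, of which at most 1 per library lay over 0.1 from a whole number of half-read steps.

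Levels in all 5 libraries are given for the 3 most abundant genes of each group and the 5 highest and 5 lowest differences of each treatment, and for some others. Of each other list, up to 4 genes with the largest difference are named. The values of 1 such gene are not reported here. The genes and lists were chosen with earlier results of these data known. Symbols and promoters came from RefSeq (GRCh38.p14), transcripts from GENCODE 29. Scripts (Python 3.11.15, numpy 2.4.6, pandas 2.3.3, matplotlib 3.10.9) were tested on simulated data.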

Additional observations from a re-analysis of the deposited data

How the results depend on the processing

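No paired analysis was possible because each condition has 1 library. Of 182 values recomputed under another setting, 132 moved by less than 0.1 on the log2 scale or, for counts, by at most 1.5 times, and 50 moved more. Medians near 0 changed sign in 6 cases, and a change of sign could stay within the limit of 0.1. That for CGI-1746 became 0.032 with median-of-ratios scaling, 0.017 when centred and 0.00050 without HNRNPA1, that for both against mock -0.046 with median-of-ratios scaling, and that for both against CGI-1746 -0.068 with it and -0.0032 when centred. Leaving genes unfiltered, or leaving out HNRNPA1, moved none of the values beyond these limits. The latter setting, sums without a group's most abundant gene, the ratio with no pseudocount, and the alternatives for the smaller threshold and the groups were added after the data were seen.

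Bortezomib against mock depended most on the setting. The medians of all 46, hnRNP, Sm and snRNP, and SF3 and U2AF genes were -1.84, -1.86, -1.81 and -2.29 with a pseudocount of 0.1, and -1.56, -1.63, -1.40 and -1.76 for the 32 genes reaching a level of 5. The medians of all 46, SR, hnRNP, Sm and snRNP, and SF3 and U2AF genes were -0.73, -0.78, -0.94, -0.38 and -0.67 with a pseudocount of 5. They were -0.73, -0.23, -0.75, -0.57 and -0.995 with median-of-ratios scaling, -0.42, -0.13, -0.44, -0.034 and -0.58 when centred on the all-gene median, and -1.93, -1.22, -1.93, -2.002 and -2.45 as ratios with no pseudocount. The all-gene medians were -1.53 with a pseudocount of 0.1, -1.43 at a level of 5 and -0.38 with a pseudocount of 5. They were -0.44 with median-of-ratios scaling, 0 when centred and -1.63 with no pseudocount. Shares of all genes beside the next counts were taken only when centred, as given above. The count past 2-fold was 12 with a pseudocount of 5, 13 with median-of-ratios scaling and 6 when centred, and past the smaller threshold 29 when centred. Under median-of-ratios scaling 3 of the genes past that threshold were above mock and 34 below it. Relative to the all-gene median, -0.42 became -0.31 with a pseudocount of 0.1 or none and -0.13 at a level of 5.

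Counts past the smaller threshold with a pseudocount of 0.1, and with none, were 1 for LU-102, 2 for both against mock and 3 for both against LU-102, and 1 for both against CGI-1746 with none. For both against mock the count was 0 with a pseudocount of 5 and with median-of-ratios scaling. For both against LU-102 it was 0 with these 2 settings, at a level of 5 and when centred. The share of all genes past the smaller threshold was not counted at any of these settings. These counts therefore cannot be set beside all genes. Median-of-ratios scaling gave a median of 0.0043 for both against LU-102. Low genes carry few reads, and the cause of these shifts was not tested.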
